A study of Neurospora crassa with 12 samples.

Results

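Transcript levels of 7 circadian clock and white collar genes were measured in germinating conidia of *Neurospora crassa*, the filamentous fungus in which the *frq* clock was worked out. The genes were taken by their identifiers: *frq* (NCU02265), *frh* (NCU03363), *ck-1a* (NCU00685), *fwd-1* (NCU04540), *wc-1* (NCU02356), *wc-2* (NCU00902), and *vvd* (NCU03967). They are 7 of the 10592 genes in the count table, and all 7 were among the 8118 genes with enough counts to be tested. The study sampled a wild-type strain, FGSC2489 (*mat A*), whose macroconidia came from cultures on Bird medium and were spread on cellophane over potato dextrose agar (PDA) at 25°C. The cultures stayed in continuous white light, which all 12 libraries share, and no dark culture was analysed here. Poly(A) RNA was sequenced from 3 replicates each at 15 min (fresh spores), 120 min (first polar growth), 240 min (long axis doubled), and 360 min (first hyphal branching).

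Each replicate pooled the tissue of several plates from one collection, and a stage was collected once most active spores had reached it, so that a library can hold spores of other stages. In such bulk samples, fewer cells of a type and less RNA per cell cannot be told apart. The libraries held 51555784 to 84946272 counts, and the members had between 1111 and 88241 counts in a library. Replicates of a stage differed by a chi-square per gene of 15.8 to 40.2 in 7 of the 12 pairs, but by 745 and 557 between 360 min replicate 3 and replicates 1 and 2, so that this library stood apart from its stage over all genes. At 15 min the 3 pairs differed by 145, 158, and 484, the last between replicates 2 and 3. Without 360 min replicate 3 the same number of members was called at 360 relative to 240 min, and the values that moved are given below. The mating-type gene *mat A-1* had 29 to 731 counts in a library and *mat a-1* had 0 in all 12 libraries, where 3 counts stand for 0.0353 to 0.0582 counts per 1000000 (CPM). The 4 conidial marker genes were detected at every stage, and their summed level was 4831 to 5023 CPM at 15 min, 29.9 to 41.5 CPM at 120 min, 22.3 to 24.8 CPM at 240 min, and 15.9 to 29.1 CPM at 360 min.

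In this clock, the white collar proteins WC-1 and WC-2 form a complex that activates transcription of *frq*. The FRQ protein, bound to the RNA helicase FRH, feeds back on that complex, is phosphorylated by casein kinase 1a, and is then marked for degradation through the F-box protein FWD-1. WC-1 is also a blue-light photoreceptor, so the same complex drives the response to light, and VVD, a smaller photoreceptor, damps that response as cells adapt to light. The members lie on 4 chromosomes of the NC12 assembly. Chromosome VII carries *frq* (3131640 to 3136464), *wc-1* (2767393 to 2773846), and *fwd-1* (1508970 to 1513148). Chromosome I carries *wc-2* (6815517 to 6819124) and *ck-1a* (7563308 to 7567354), chromosome VI carries *vvd* (2268533 to 2271812), and chromosome II carries *frh* (964247 to 968587).

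Levels below are CPM with library sizes scaled by the trimmed mean of M values (TMM). Changes are log2 fold changes of the later over the earlier stage from the quasi-likelihood test of edgeR, each with its standard error (SE), and a gene was called at a Benjamini-Hochberg adjusted p below 0.05 over the 8118 tested genes. From 15 to 120 min, all 7 members were called, with 5 downregulated and 2 upregulated. The background was as broad, because 82.7% of tested genes were called in that comparison, 43.1% upregulated and 39.6% downregulated. The members are therefore described below by the direction and size of each change, and being called does not set them apart.

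The core negative element *frq* had the largest fall among the members. Its level was 952, 963, and 889.7 CPM at 15 min, 78.7, 73.9, and 77.6 CPM at 120 min, 71.1, 67.2, and 65.7 CPM at 240 min, and 58.6, 55.6, and 54.0 CPM at 360 min. No 2 stages overlapped, and each later stage lay below the one before it. At 120 min *frq* was downregulated relative to 15 min by a log2 fold change of -3.61 (SE 0.06, edgeR adjusted p = 7.8e-15), a level 0.0821 times that at 15 min. That change was larger in size than those of 93.7% of tested genes. The later falls were small, with a log2 fold change of -0.17 (SE 0.05, edgeR adjusted p = 0.029) at 240 min relative to 120 min and of -0.28 (SE 0.05, edgeR adjusted p = 0.001) at 360 min relative to 240 min. The first of these was lost when any 1 of 4 libraries was left out (120 min replicates 1 and 3, 240 min replicates 2 and 3), with edgeR adjusted p between 0.079 and 0.12. Both were lost when libraries were scaled by their totals alone, with log2 fold changes of -0.14 (edgeR adjusted p = 0.087) and -0.07 (edgeR adjusted p = 0.26).

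The *frh* gene encodes the RNA helicase that partners FRQ and is also needed for RNA turnover in growing cells. It had 1115, 1151, and 1140.2 CPM at 15 min, 537, 485, and 519 CPM at 120 min, 485, 478, and 453 CPM at 240 min, and 353, 334, and 244 CPM at 360 min. Unlike *frq*, it fell in 2 clear steps, the first at 120 min relative to 15 min (log2 fold change -1.14, SE 0.11, edgeR adjusted p = 2.4e-07) and the second at 360 min relative to 240 min (log2 fold change -0.60, SE 0.10, edgeR adjusted p = 0.00065). Replicate 3 at 360 min was the lowest of its stage, and without it the second change was -0.46 (edgeR adjusted p = 3.0e-05). This is the library that stood apart over all genes. Its summed level of the 4 conidial markers was 28.5 CPM, against 29.1 and 15.9 CPM in replicates 1 and 2. The single markers went different ways in replicate 3. The level of *eas* was 1.49 CPM there, against 10.6 and 3.14 CPM. Those of *ccg-1* (15.2 CPM) and *con-10* (4.51 CPM) were the highest of the stage, and that of *con-6* lay between those of the other replicates. The part of these differences in the *frh* value was not tested.

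Casein kinase 1a, encoded by *ck-1a*, phosphorylates FRQ over the course of the day. Its transcript had 543, 569, and 522 CPM at 15 min, 344, 299, and 298 CPM at 120 min, 341, 324, and 319 CPM at 240 min, and 283, 258, and 254 CPM at 360 min. It was downregulated at 120 min relative to 15 min (log2 fold change -0.80, SE 0.06, edgeR adjusted p = 6.6e-08) and again at 360 min relative to 240 min (log2 fold change -0.31, SE 0.06, edgeR adjusted p = 0.0023), with ranges that did not overlap. The second fall was not called with library totals alone (log2 fold change -0.10, edgeR adjusted p = 0.19).

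Among the members that act on FRQ protein, *fwd-1* went the other way. It encodes the substrate-binding subunit of the ubiquitin ligase that targets phosphorylated FRQ. The *fwd-1* transcript had 18.4, 18.1, and 19.8 CPM at 15 min, 38.7, 37.8, and 39.7 CPM at 120 min, 39.5, 39.5, and 41.7 CPM at 240 min, and 39.3, 41.0, and 38.2 CPM at 360 min. It was 2.06 times as high at 120 min as at 15 min (log2 fold change 1.05, SE 0.05, edgeR adjusted p = 2.5e-10), and its later changes of 0.06 (SE 0.05) at 240 min and -0.03 (SE 0.05) at 360 min were not called. Its annotated span shares 224 bases with NCU04541, which had 2.92 to 29.5 CPM. The libraries were strand-specific and aligned with the strand given, but the strands of both genes were not looked up here, and how reads in the shared stretch were divided was not tested.

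**Figure D1:**
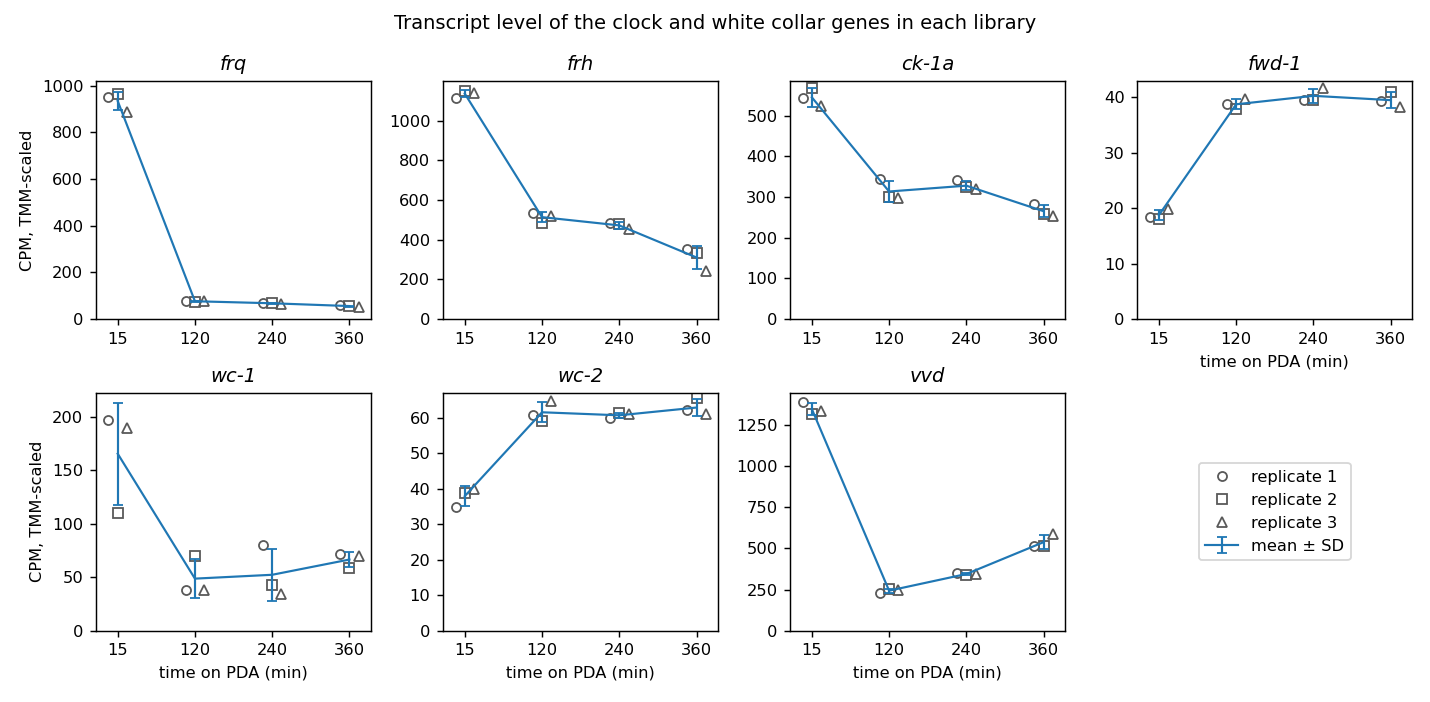
Level of each member in each library, in CPM scaled by TMM, against time on PDA in minutes; symbols are the 3 replicates, and the line joins stage means with bars of 1 SD. The *frq* libraries lie between 889.7 and 963 CPM at 15 min and below 80 CPM later, *vvd* climbs again after 120 min, and *wc-1* has the widest bars.

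The white collar pair moved in opposite directions between 15 and 120 min. WC-2 is the partner that WC-1 needs in order to act in the complex. The *wc-2* transcript had 34.8, 38.9, and 40.0 CPM at 15 min, 60.7, 59.1, and 64.7 CPM at 120 min, 59.9, 61.2, and 60.9 CPM at 240 min, and 62.0, 65.5, and 61.0 CPM at 360 min. It was upregulated at 120 min relative to 15 min (log2 fold change 0.70, SE 0.06, edgeR adjusted p = 8.3e-08), and its changes at 240 min (-0.02, SE 0.06) and 360 min (0.05, SE 0.06) were not called.

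For the photoreceptor gene *wc-1* the libraries of a stage disagreed. It had 197, 111, and 189 CPM at 15 min, 38.2, 69.5, and 38.6 CPM at 120 min, 79.9, 42.7, and 34.5 CPM at 240 min, and 71.6, 58.5, and 69.8 CPM at 360 min. The 15 min libraries were all above every later library, and *wc-1* was downregulated at 120 min relative to 15 min by a log2 fold change of -1.76 (SE 0.32, edgeR adjusted p = 0.00018). Leaving out any 1 library of the 2 stages gave log2 fold changes of -2.11 to -1.61, all called. Among the 3 later stages the ranges overlapped, and the changes were not called, at 0.11 (SE 0.31, edgeR adjusted p = 0.85, of no fixed sign when 1 library was left out) for 240 min relative to 120 min and 0.34 (SE 0.31, edgeR adjusted p = 0.41) for 360 min relative to 240 min.

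The spread of *wc-1* between replicates was itself unusual. Its SD within a stage, pooled over the 4 stages on the log2 scale, was 0.466, larger than that of 98.8% of tested genes, whose median was 0.104. The same SD was 0.151 for *frh* and between 0.051 and 0.082 for the other 5 members. Replicates 1 and 3 at 15 min, replicate 2 at 120 min, and replicate 1 at 240 min lay highest above their stage means, so no one replicate number was high throughout. Replicate 1 was the highest of its stage at 15, 240, and 360 min (log2 deviations 0.296, 0.699, and 0.109), but not at 120 min (-0.291). RefSeq annotates 4 transcripts for *wc-1*, 3 each for *frq* and *ck-1a*, and 1 for each of the others. In a comparison whose cuts were chosen after seeing these values, an SD of at least 0.4 was found for 19 of 434 genes with 2 or more transcripts (4.38%), *wc-1* itself included. It was found for 3 of 2719 genes with 1 transcript (0.110%), all with a mean of at least 32 CPM. The SDs of *frq* and *ck-1a*, with 3 transcripts each, were 0.057 and 0.082. The counts were summed from coverage estimated per transcript, and the part of that step in the spread of *wc-1* was not tested.

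**Figure D2:**
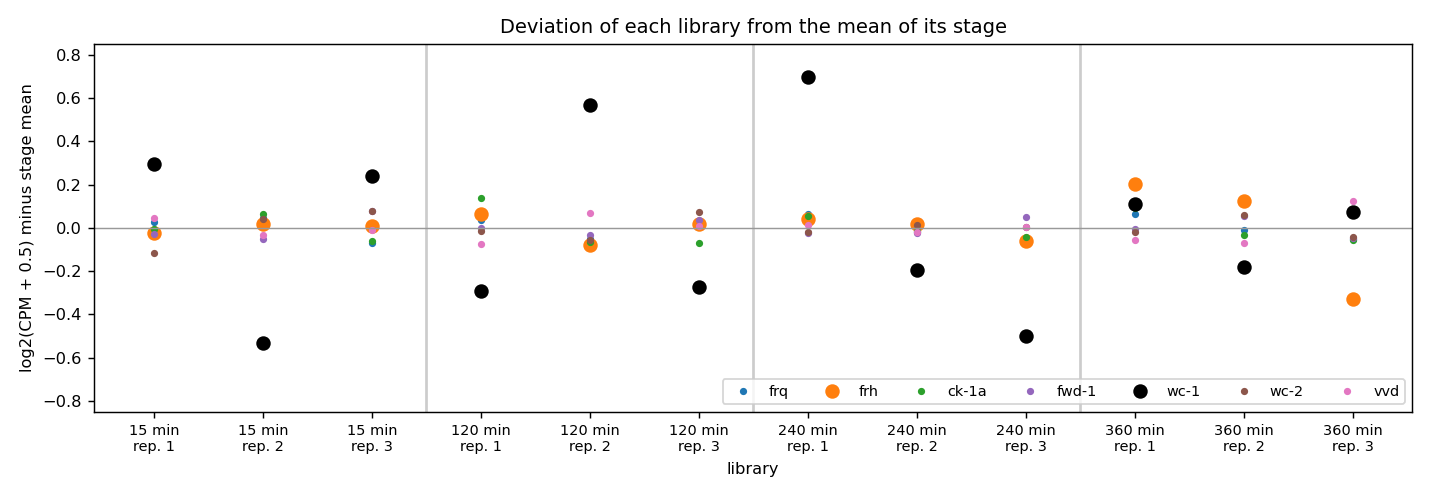
Deviation of each library from the mean of its stage for each member, in log2(CPM + 0.5); vertical lines separate the stages and large symbols mark *wc-1* and *frh*. The *wc-1* points reach from -0.53 to 0.70, and the lowest *frh* point is replicate 3 at 360 min at -0.33.

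The light-adaptation gene *vvd* was the 1 member with a called fall and then called rises. The mean of *wc-1* also fell and then rose, but its later changes were not called. The *vvd* transcript had 1387, 1313, and 1335 CPM at 15 min, 231, 255, and 245 CPM at 120 min, 348, 339.9, and 346 CPM at 240 min, and 516, 512, and 586 CPM at 360 min. The 4 stages did not overlap. At 120 min it was downregulated relative to 15 min (log2 fold change -2.47, SE 0.06, edgeR adjusted p = 3.0e-13). It was then upregulated at 240 min relative to 120 min (log2 fold change 0.50, SE 0.06, edgeR adjusted p = 0.00012) and at 360 min relative to 240 min (log2 fold change 0.64, SE 0.06, edgeR adjusted p = 2.2e-05). At 360 min its level was still 0.4 times that at 15 min (log2 fold change -1.32, SE 0.06, edgeR adjusted p = 9.4e-11).

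After the first interval fewer members changed. Between 120 and 240 min, 2 of the 7 members were called, *vvd* upregulated and *frq* downregulated, against a background of 22.3% of tested genes (12.6% up, 9.73% down). The change of *frh* was not called (-0.12, SE 0.10, edgeR adjusted p = 0.45), although its ranges at 240 and 120 min did not overlap. Between 240 and 360 min, 4 of the 7 were called, *vvd* upregulated and *frq*, *frh*, and *ck-1a* downregulated, against 41.8% of tested genes (20.7% up, 21.1% down). With library totals alone, 4 members were again called, but *vvd*, *wc-2* (0.26, edgeR adjusted p = 0.0054), and *fwd-1* (0.18 in place of -0.03, edgeR adjusted p = 0.035) were upregulated and only *frh* downregulated. The median change of all tested genes was then 0.22 in place of 0.02, and the TMM factors of the 360 min libraries were 1.12 to 1.17, against 0.888 to 0.990 in the other 9. None of the member changes after 120 min passed a test against a 1.5-fold change.

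Over the whole course, 360 min relative to 15 min, all 7 members were called, 5 down and 2 up, against 84% of tested genes (44% up, 40% down). The log2 fold changes were -4.06 for *frq*, -1.87 for *frh*, -1.32 for *vvd*, -1.31 for *wc-1*, -1.04 for *ck-1a*, 0.73 for *wc-2*, and 1.07 for *fwd-1*. For *frq* the change exceeded those of 94.9% of tested genes in size, and for the other 6 the share was between 36.2% and 73.4%. These directions, and those at 120 min relative to 15 min, were called under every scaling, filter, and left-out library tried.

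**Figure D3:**
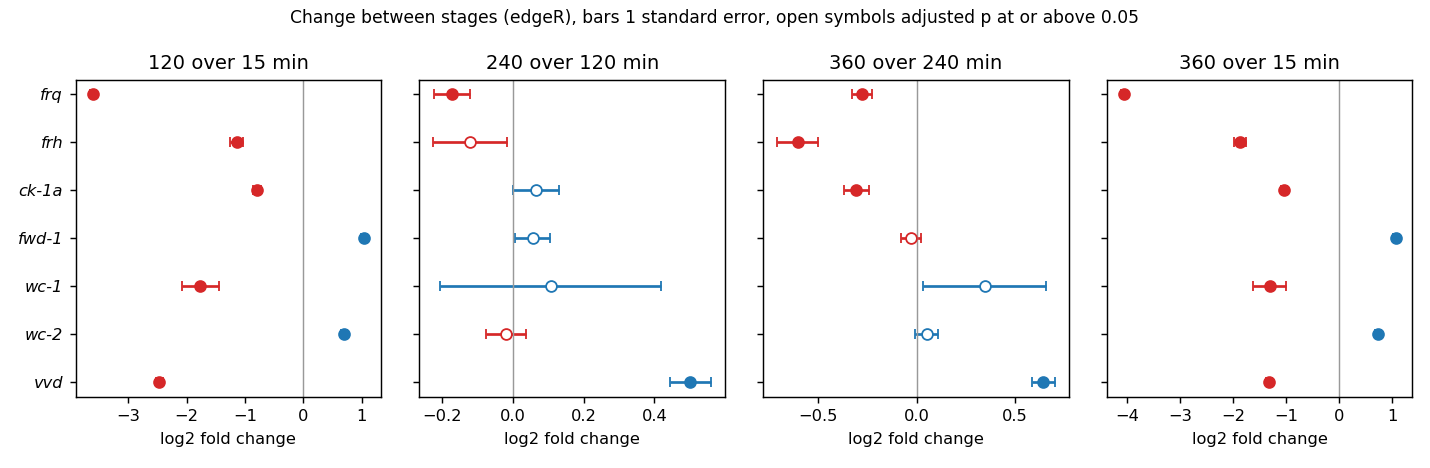
Log2 fold change of each member in the 4 comparisons, with bars of 1 standard error; filled symbols have an edgeR adjusted p below 0.05, and each panel has its own axis. A total of 5 members lie left of 0 at 120 over 15 min, *fwd-1* and *wc-2* lie right of it, and *vvd* is the 1 member right of 0 with a filled symbol in both middle panels.

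A ratio of 2 counts within a library does not depend on how libraries are scaled, so it shows how the balance between members changed. The counts were not divided by gene length, so the level or sign of a ratio does not rank 2 members. The ratio of *vvd* to *frq* counts was 1.46, 1.36, and 1.50 at 15 min, then 2.93, 3.45, and 3.15 at 120 min, next 4.89, 5.06, and 5.26 at 240 min, and finally 8.81, 9.19, and 10.9 at 360 min. It increased at every stage, without overlap, and was 6.65 times as high at 360 min as at 15 min. With 3 libraries against 3, the exact two-sided permutation test cannot give less than p = 0.1, which each of these 4 comparisons reached (0.133 after adjustment over the 16 ratio tests).

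The ratio of *frq* to *frh*, the transcripts of the 2 partner proteins, had a mean log2 of -0.28 ± 0.07 at 15 min, then -2.74 ± 0.03 at 120 min, next -2.80 ± 0.03 at 240 min, and -2.45 ± 0.24 at 360 min (SD, n = 3 each). Its difference at 120 min relative to 15 min was -2.46. At 240 min relative to 120 min it was -0.05 and at 360 min relative to 240 min it was 0.34, both also without overlap (exact permutation p = 0.1 for each of the 3). The last difference was 0.21 without 360 min replicate 3, and the one before it was -0.035 without 240 min replicate 2. The 120 and 240 min stages nearly touched, with replicate 1 at -2.7699 and -2.7705. The ratio of *frq* to *wc-1*, target to activator, had a mean log2 of 2.54 ± 0.50 at 15 min, then 0.71 ± 0.54 at 120 min, next 0.47 ± 0.57 at 240 min, and -0.24 ± 0.16 at 360 min. Its neighbouring later stages overlapped. Per kilobase of annotated length, *frq* lay above *wc-1* at 360 min (11.6 against 10.3 CPM), unlike the sign of this ratio. The ratio of *wc-1* to *wc-2* had a mean log2 of 2.08 ± 0.51 at 15 min, then -0.39 ± 0.55 at 120 min, next -0.31 ± 0.65 at 240 min, and 0.08 ± 0.21 at 360 min. Only the 15 min libraries stood apart from the later ones in it, and its later differences were within the spread between replicates.

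**Figure D4:**
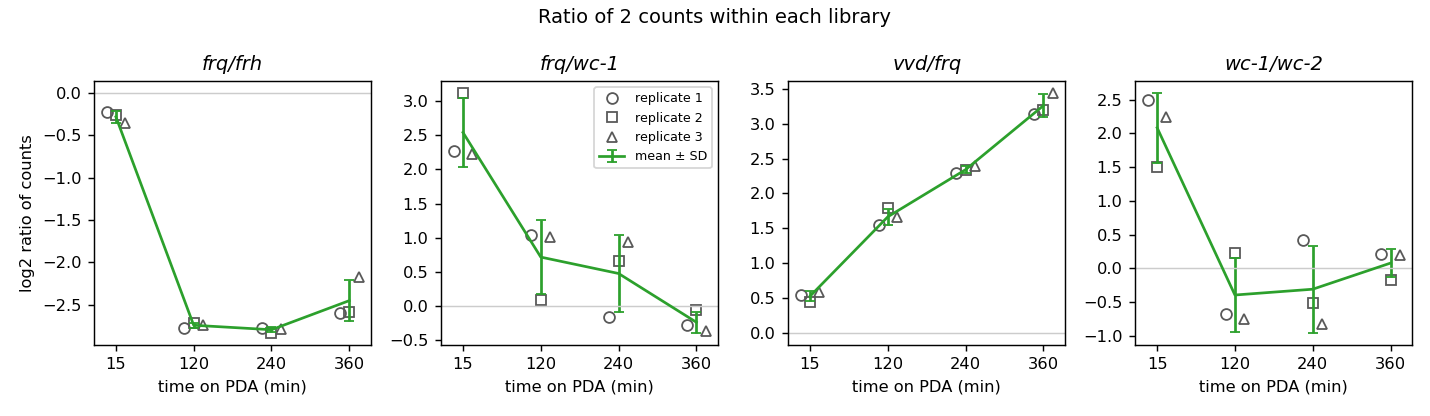
Log2 ratio of the counts of 2 members within each library against time on PDA in minutes; symbols are replicates and the line joins means with bars of 1 SD. The *vvd* to *frq* ratio climbs at each stage to a mean of 3.26, whereas the *frq* to *frh* ratio has a mean of -2.74 at 120 min, against -0.28 at 15 min.

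The order of the members was compared in CPM per kilobase of annotated gene length, introns included. At 15 min the order was *vvd* (410 ± 11.6, SD, n = 3), *frh* (262 ± 4.18), *frq* (194 ± 8.19), *ck-1a* (135 ± 5.76), *wc-1* (25.7 ± 7.41), *wc-2* (10.5 ± 0.75), and *fwd-1* (4.49 ± 0.22), and no neighbours overlapped. At 120 min *frq* ranked 5 of 7, at 15.9 ± 0.52, just below *wc-2* at 17.0 ± 0.80, and *frh* was first at 118 ± 5.99. The levels of *ck-1a* (77.5 ± 6.48) and *vvd* (74.2 ± 3.67) overlapped there, as did those of *frh* (109 ± 3.91) and *vvd* (105 ± 1.29) at 240 min. At both stages *fwd-1* (9.27 ± 0.22 and 9.63 ± 0.30) and *wc-1* (7.56 ± 2.79 and 8.11 ± 3.75) overlapped too. At 360 min *vvd* was first again (164 ± 12.7), followed by *frh* (71.5 ± 13.5) and *ck-1a* (65.5 ± 3.77), which overlapped, *wc-2* (17.4 ± 0.65), *frq* (11.6 ± 0.48), and the overlapping *wc-1* (10.3 ± 1.10) and *fwd-1* (9.45 ± 0.34).

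Lists of related genes of 2 kinds were read beside the members. The first held 22 genes linked to the clock, among them kinases, phosphatases, other genes that affect its period, and those of the COP9 signalosome. That complex keeps ubiquitin ligases such as that of FWD-1 in working order. At 120 min relative to 15 min, 12 of the 22 were upregulated and 8 downregulated, against 43.1% and 39.6% of all tested genes. The median log2 fold change of the list was 1.14, against 0.04 for all tested genes. The largest was *pkac-1*, a catalytic subunit of protein kinase A, at 77.1 CPM against 3.29 CPM at 15 min (log2 fold change 4.55, SE 0.09, edgeR adjusted p = 3.2e-14). The COP9 subunit genes *csn-4* (3.88), *csn-3* (3.27), and *csn-6* (2.58) came next, and all 7 subunit genes were upregulated, a direction shared by *fwd-1* and by 43.1% of all tested genes. The 8 downregulated genes all lay outside COP9, so the list median of 1.14 does not describe the other regulators. Picked out after the values were seen, the 3 casein kinase 2 subunit genes *cka* (-0.28), *ckb-1* (-0.42), and *ckb-2* (-0.34) were all downregulated, as were *ck-1a* and 39.6% of all tested genes.

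Fewer genes of the list were called in the later intervals, as in the whole table. At 240 min relative to 120 min, 3 of the 22 were called, against 22.3% of all tested genes: *scon-3*, the SKP1 adaptor of such ubiquitin ligases (0.92, SE 0.23, edgeR adjusted p = 0.013), and the kinase gene *camk-1* (0.30) up and *csn-4* (-0.17) down. At 360 min relative to 240 min, 3 were upregulated and 9 downregulated, against 20.7% and 21.1% of all tested genes. The largest changes were those of *scon-3* (-0.63), *cka* (-0.45), NCU07839 (-0.40), and the protein phosphatase gene *pp4* (-0.31). The ranges of *scon-3* overlapped between the stages, at 201 ± 101 CPM against 311 ± 8.05 CPM at 240 min (SD, n = 3 each). With library totals alone that count was 9 up and 2 down, and the fall of *scon-3* was not called under any of the 3 other scalings.

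The second list held 17 genes known as light-induced or clock-controlled outputs, 4 of them the conidial markers. At 120 min relative to 15 min, 5 were upregulated and 11 downregulated, against 43.1% and 39.6% of all tested genes. The largest changes were the 4 markers: the hydrophobin gene *eas* had 9.70 CPM against 4059 CPM at 15 min (log2 fold change -8.71, SE 0.54, edgeR adjusted p = 3.6e-09), and *ccg-1* (-6.32), *con-6* (-4.61), and *con-10* (-3.76) fell with it. These markers fell in the same interval as *frq*, *vvd*, *wc-1*, *frh*, and *ck-1a*, and their part in the member changes was not tested. At 240 min relative to 120 min, 6 were upregulated and 4 downregulated, against 12.6% and 9.73% of all tested genes. The largest were *eas* (-1.85), the transcription factor gene *adv-1* (0.57), *con-6* (-0.54), and the carotenoid gene *al-1* (0.47). At 360 min relative to 240 min, 4 were upregulated and 1 downregulated, against 20.7% and 21.1% of all tested genes, the largest being *adv-1* (0.66), *bli-3* (0.66), *con-6* (-0.60), and the cryptochrome gene *cry* (0.21). The ranges of *bli-3* overlapped, at 8.25 ± 2.54 CPM against 5.23 ± 0.45 CPM (SD, n = 3 each). Its annotated span shares 154 bases with NCU07266, which had 91.9 to 223 CPM. How reads in that stretch were divided was not tested. The genes *adv-1*, *cry*, and *vad-3*, the last picked out after its values were seen (0.25 and 0.16), were called up in both intervals in which *vvd* was called up. So was *camk-1* of the first list (0.30 and 0.26), and the share of all tested genes called up in both was not counted.

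At 360 min relative to 15 min, 12 of the 22 clock regulators were upregulated and 9 downregulated, and 5 of the 17 outputs were upregulated and 10 downregulated, against 44% and 40% of all tested genes. The largest changes were again those of *pkac-1* (4.56) and *eas* (-9.64).

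**Figure D5:**
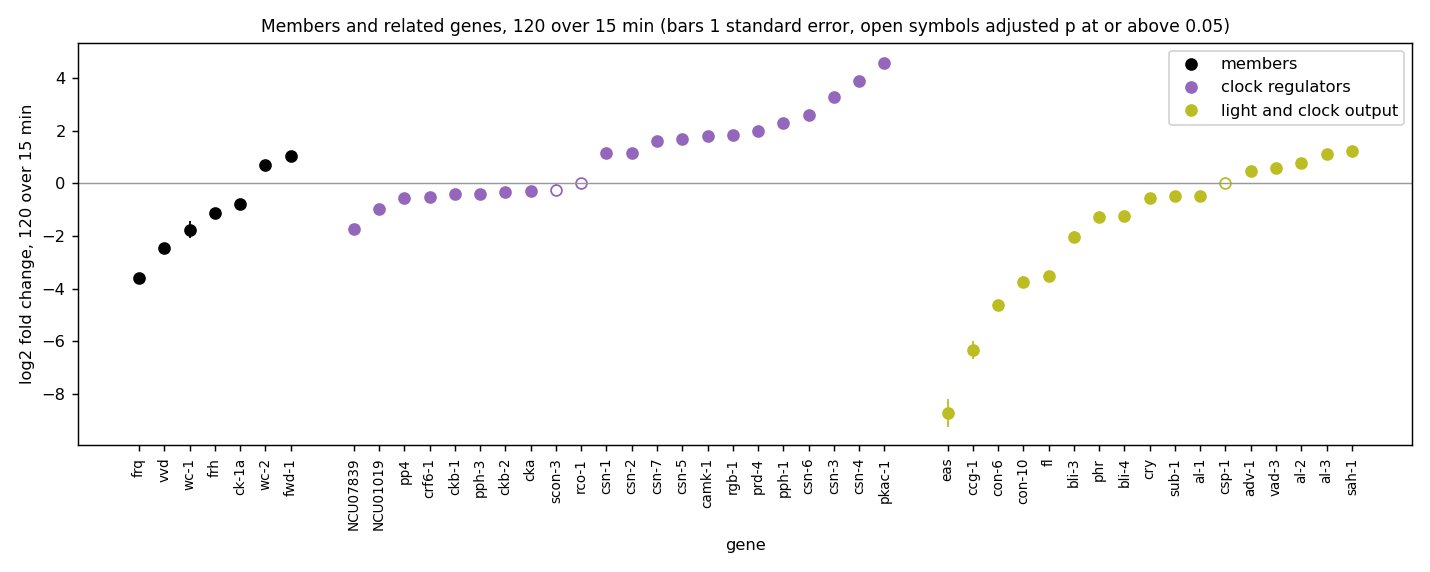
Log2 fold change at 120 over 15 min of the 7 members, the 22 clock regulators, and the 17 light and clock output genes, with bars of 1 standard error; open symbols were not called. The regulators reach up to *pkac-1* at 4.55 and the outputs down to *eas* at -8.71, with the members between them.

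Across the 12 libraries, the tested genes most similar to each member in log2 CPM were found by Pearson's r, as a description. These points share libraries, and the step between 15 min and the later stages carries most of the pattern. The nearest genes were NCU08844 for *frq* (r = 0.999), NCU01939 for *frh* (r = 0.999), *crf8-1* for *ck-1a* (r = 0.996), NCU05296 for *fwd-1* (r = 0.998), NCU12150 for *wc-2* (r = 0.992), and NCU03847 for *vvd* (r = 0.997). For *wc-1* the nearest was NCU00386 at a lower r of 0.944.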

How the data were processed

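RNA was sequenced from 12 libraries of strain FGSC2489 on PDA, grouped by the stage and replicate number in the labels. The authors trimmed reads, aligned them to OR74A version 12 with HISAT2 (2.1.0), dropped alignments below a mapping quality minimum, and derived coverage of each transcript with StringTie (1.3.3b). The deposited counts per gene, whole numbers that are not normalized, were made from that coverage by the script of StringTie and are therefore estimates. The libraries were strand-specific (dUTP), and HISAT2 was told the strand of the reads. A second deposited table, the authors' own relative expression between stages, was not used. LOX, the test of the study, was not installed here, and edgeR (4.0.16) was used on the counts, with TMM scaling, its filter on low counts, 1 mean per stage, and all 12 libraries in 1 fit (R 4.3.3). DESeq2 (1.42.0), other scalings, no filter, a fit of 2 stages only, a replicate block, a test against a 1.5-fold change, and leaving out each library were alternatives. Ratios were tested by exact permutation.

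Gene names and coordinates came from RefSeq (NC12), which matched 10590 of 10592 identifiers. COP9 genes were taken by symbol, because the table used here gives no products. The genes named are the members, up to 4 genes of each list with the largest called change per comparison, and the genes nearest to each member. The members and lists were chosen with earlier results of these data known. Totals of 51555784 to 84946272 counts per library limit precision by counting error only. No pair of replicates differed by as little as sampling noise (chi-square per gene 15.8 to 745, the highest in the pairs with 360 min replicate 3), and p-values measure the spread between these pooled collections.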

Additional observations from a re-analysis of the deposited data

How the results depend on the processing

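All 7 members were called at 120 relative to 15 min and at 360 relative to 15 min under every alternative. At 240 relative to 120 min, 2 members were called; this count was 1 with library totals alone, 0 against a 1.5-fold change, and 1 to 3 with a library left out, where *frh* was gained without 360 min replicate 3 (-0.13, edgeR adjusted p = 0.032). At 360 relative to 240 min, 4 were called, and 0 against a 1.5-fold change. Of 532 refitted changes of single members, 510 kept their direction and call, 13 lost the call, 2 gained it, and 7 changed sign, none of them called with TMM and all libraries. At 240 relative to 120 min these were *wc-1* without 120 min replicate 1 or 3 or 240 min replicate 1 (0.11 with all libraries, range -0.34 to 0.45 over left-out libraries) and *wc-2* with library totals alone (0.018) or without 120 min replicate 3 (0.018, range -0.048 to 0.018). At 360 relative to 240 min they were *fwd-1* with library totals alone (0.18) and with upper-quartile scaling (0.0049). At 240 relative to 120 min, the log2 change of the *frq* to *wc-1* ratio was 0.079 without 240 min replicate 1 (-0.24 with all libraries, range -0.55 to 0.079 over left-out libraries). That of the *wc-1* to *wc-2* ratio, 0.09 with all libraries, was -0.05 without 120 min replicate 1, -0.09 without 120 min replicate 3, and -0.28 without 240 min replicate 1 (range -0.28 to 0.40). The cause was not tested.

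The median change of all tested genes moved by more than 0.1 with scaling: at 120 relative to 15 min it was 0.04 with TMM, -0.22 with upper-quartile scaling, and -0.15 with DESeq2, and at 360 relative to 15 min it was 0.05 with TMM, 0.35 with library totals alone, -0.20 with upper-quartile scaling, and -0.17 with DESeq2. The share of calls that were up was 72.0% with library totals alone against 56.4% at 240 relative to 120 min and 85.3% against 49.6% at 360 relative to 240 min. Correlations of deviations between stages were weak, from -0.08 to 0.17 for libraries of the same replicate number and -0.18 to 0.15 for the others. Those over 0.1 were 3 of 18 same-number pairs, against 1 of 36 others. The 3 joined replicate 1 at 120 and 240 min (0.17), 120 and 360 min (0.11), and 240 and 360 min (0.17). A replicate block changed no member call, with 7, 2, 4, and 7 members called in the 4 comparisons.

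The lists too depended on scaling at 360 relative to 240 min, where the light and clock outputs were 7 up and 1 down with library totals alone, against 4 up and 1 down. Every member had at least 1111 counts in a library, above the limit of 3 counts. With 3 libraries per stage, exact tests of ratios cannot reach 0.05.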
